A study of Arabidopsis thaliana with 12 samples.

Results

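Gibberellin (GA) is perceived by soluble GID1 receptors, which bind DELLA proteins once GA is bound. DELLA proteins restrain growth and act on many promoters through partner transcription factors. The F-box protein SLY1 brings GA-bound receptor and DELLA to an SCF ubiquitin ligase, and the DELLA is then degraded. SCL3 belongs to the GRAS family, as the DELLAs do, but lacks their DELLA domain, and it is known to act against DELLAs in GA responses. When GA is low, plants are known to raise the transcripts of GA receptors and late GA-synthesis enzymes, a feedback that needs DELLAs.

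The 6 genes described here were chosen by locus from the GA-signalling genes that lie between the hormone and its responses. They are the receptors GID1A (AT3G05120) and GID1B (AT3G63010), the F-box gene SLY1 (AT4G24210), the DELLA genes GAI (AT1G14920) and RGA1 (AT2G01570, the gene usually called RGA) and SCL3 (AT1G50420). Each was measured by 1 probe set of the 16764 that were tested. The receptor gene GID1C and the DELLA genes RGL1, RGL2 and RGL3 are not among the 6. The probe sets of GID1A, GID1B and SLY1 carry their names in the platform annotation. Those of GAI, RGA1 and SCL3 could be named only through the study's own lists of genes whose expression differed between genotypes. For these 3 genes, being named here was therefore not independent of having changed.

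RNA came from shoots of 18-d-old Arabidopsis thaliana seedlings of 4 genotypes with 3 arrays each. All were in the Col-0 accession and grown on MS medium. The ga1-3/brm-1 double mutant and the ga1-3 mutant lack GA1, the enzyme that opens GA synthesis, and ga1-3 had been introgressed into Col-0. The double mutant and brm-1 lack BRM, the ATPase of a SWI/SNF chromatin-remodelling complex. Wild-type Col-0 seedlings were the reference for all mutants. Homozygous brm-1 plants had to be picked by genotyping among segregating progeny. Per the methods, seeds carrying ga1-3 were imbibed in GA before sowing, so that the mutation and this early treatment cannot be told apart. Values are log2 signals after GC-RMA normalisation, and a log2 difference of 1 is a doubling of signal. A gene was called changed when limma's adjusted p was below 0.05 and the fold change above 1.5, and "rose" and "fell" are kept for such calls.

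BRM served as a check of the labels. Its signal averaged 2.88 ± 0.14 in ga1-3/brm-1 and 2.89 ± 0.11 in brm-1, against 8.14 ± 0.19 in ga1-3 and 7.88 ± 0.06 in the wild type (log2, SD, n = 3 each). Both brm-1 genotypes were thus below 4.70, a level taken as near background. GA1 was not analysed here, because no probe set was named for it. The genotypes also differed in tissue markers, of which 2 of 6 for green tissue, 1 of 6 for root and 2 of 6 for flowers were measured and named. The root marker PYK10 ranged from 12.2 to 12.7 in ga1-3/brm-1, from 9.61 to 10.8 in brm-1 and from 11.4 to 11.8 in ga1-3, against 9.34 to 10.4 in the wild type. The summed green markers RCA and CA1 ranged from 14.4 to 14.5 in ga1-3/brm-1, from 13.9 to 14.4 in brm-1 and from 14.79 to 14.89 in ga1-3, against 14.72 to 14.81 in the wild type, and CA1 fell by 1.12 in brm-1 (adjusted p = 0.0065). The summed flower markers PI and SEP3 ranged from 7.42 to 8.59 in ga1-3/brm-1, from 8.28 to 8.82 in brm-1 and from 6.54 to 6.84 in ga1-3, against 7.61 to 7.81 in the wild type. The sum hides that PI and SEP3 did not move together. In ga1-3/brm-1, PI fell (-0.933, adjusted p = 0.0198) and SEP3 was not called (0.401). In ga1-3, SEP3 fell (-2.099, adjusted p = 0.0119) and PI was not called (0.042). Neither was called in brm-1. The part of these marker differences in the results was not tested. Array 3 of brm-1 stood apart from its replicates on the first component of within-genotype variation (-37.8 against 20.0 and 17.8). Array 3 of ga1-3 had the highest 3′ over 5′ difference of the actin control (6.38 log2 units) and the lowest array weight (0.33). It was the ga1-3 array nearest the wild-type mean for 5 of the 6 genes.

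In ga1-3, all 6 genes changed: both receptors, SLY1 and SCL3 rose and both DELLA genes fell. Among all probe sets 8.79% were called in this comparison, 4.06% up and 4.74% down. The arrays of ga1-3 and wild type did not overlap for any of the 6 genes, compared with 33.9% of all probe sets. The median log2 change was 0.80 over the 6 genes, of which 4 rose and 2 fell, and 0.02 over all probe sets. It describes no shift common to the 6 genes. GAI, RGA1 and SCL3 were named only through the study's lists of changed genes. Counts and medians that include them, here and in the later comparisons, therefore lean towards calls and cannot be read as an excess over all probe sets. GID1A, GID1B and SLY1, named by the platform, were all called in ga1-3, but they were chosen with earlier results of these data known. Of the other genes of GA perception, the 4 that were measured and named, all by the platform, were not called in ga1-3. In brm-1, 1 of the 6 genes was called, SCL3, which fell. Here 14.7% of all probe sets were called, 7.58% downwards, and 39.4% had arrays that did not overlap, as 2 of the 6 genes did. In ga1-3/brm-1, 4 of the 6 genes were called: both receptors rose and both DELLA genes fell, while SLY1 and SCL3 were not called. In this comparison 23.6% of all probe sets were called, and 53.3% did not overlap, against 5 of the 6 genes. The comparisons with the wild type share its 3 arrays. In whole shoots, fewer cells of a type and less RNA per cell cannot be told apart.

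**Figure D1:**
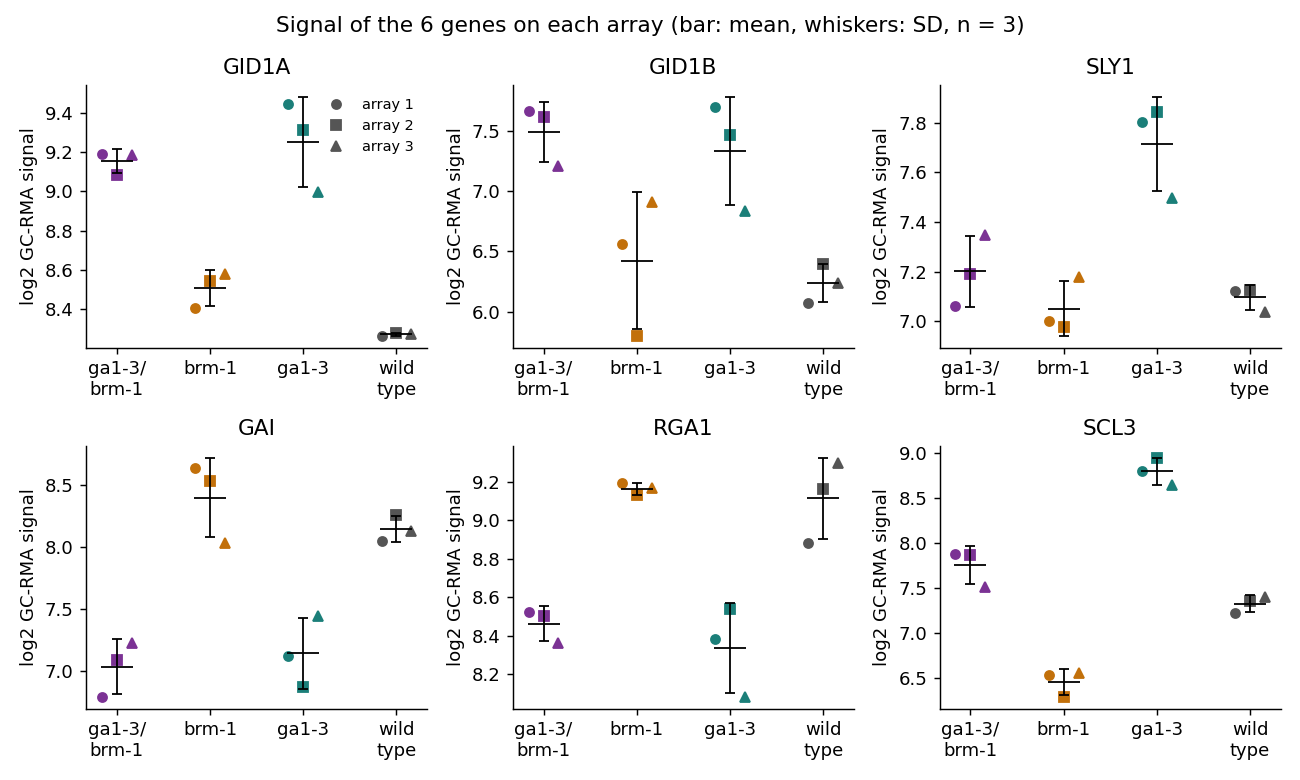
Log2 GC-RMA signal of each gene (vertical axis) on the 3 arrays of each genotype (horizontal axis). Symbols are single arrays, bars are means and whiskers are SD (n = 3). The receptors and SCL3 are highest in the genotypes carrying ga1-3, the DELLA genes are lowest there, and SCL3 is lowest in brm-1.

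Of the receptors, GID1A had the clearest signal. It read 9.19, 9.08 and 9.19 in ga1-3/brm-1, 8.41, 8.54 and 8.58 in brm-1 and 9.44, 9.31 and 9.00 in ga1-3, against 8.26, 8.28 and 8.27 in the wild type. The 3 wild-type arrays lay below all 9 mutant arrays, and the double mutant lay within the range of ga1-3. GID1A rose 1.97-fold in ga1-3 (log2 change 0.98 ± 0.11 SE, adjusted p = 0.00041) and 1.84-fold in ga1-3/brm-1 (0.88 ± 0.11, adjusted p = 0.00018). In brm-1 it was 0.24 ± 0.11 above the wild type, with a 95% interval of -0.0047 to 0.48 and an adjusted p of 0.15, so this difference was not called although the arrays did not overlap.

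GID1B, the second receptor, moved with GID1A but with a wider spread. Its signal was 7.66, 7.61 and 7.21 in ga1-3/brm-1, 6.56, 5.80 and 6.91 in brm-1 and 7.70, 7.47 and 6.83 in ga1-3, against 6.07, 6.39 and 6.24 in the wild type. The arrays of brm-1 spanned the wild-type range on both sides, and its array 3 exceeded the lowest ga1-3 array. GID1B rose 2.39-fold in ga1-3/brm-1 (1.26 ± 0.29, adjusted p = 0.0062) and 2.14-fold in ga1-3 (1.10 ± 0.29, adjusted p = 0.031). In brm-1 the difference was 0.19 (95% interval -0.45 to 0.82, adjusted p = 0.72). The pooled SD within genotypes was 0.39 for GID1B, above that of 89.9% of all probe sets, whereas GID1A had 0.13 against a median of 0.18 over all probe sets.

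The call of GID1B in ga1-3 did not hold in every fit that left out 1 array. It was lost when any wild-type array or array 1 or 2 of ga1-3 was left out, with adjusted p between 0.058 (without wild-type array 2) and 0.106 (without ga1-3 array 1). The log2 change in these 5 fits lay between 0.91 and 1.18. With arrays 1, 2 and 3 of the wild type left out in turn, the adjusted p was 0.093, 0.058 and 0.082, and without ga1-3 array 2 it was 0.094. Its rise in ga1-3/brm-1 over the wild type passed in all 12 such fits. For GID1A the call in ga1-3 also held in all 12.

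**Figure D2:**
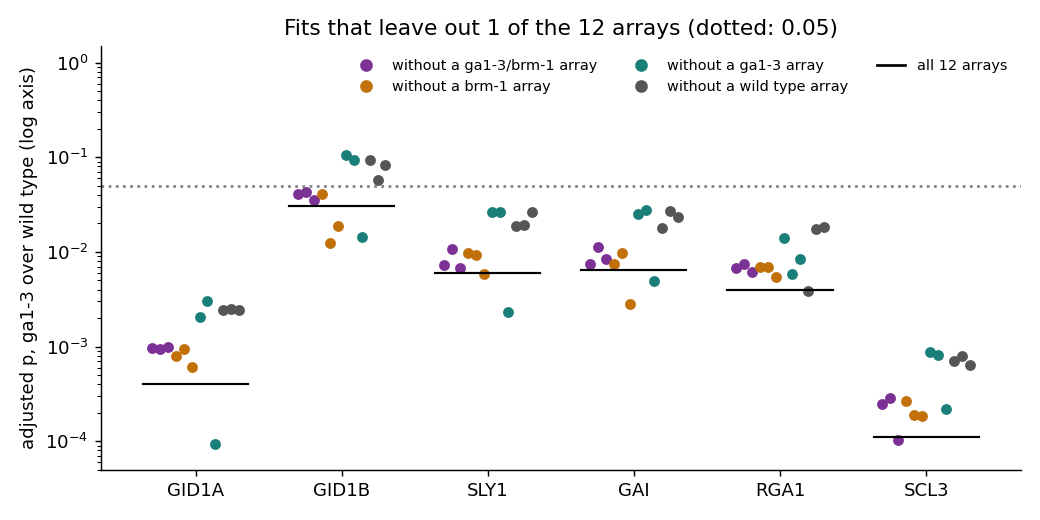
Adjusted p of ga1-3 over wild type (vertical log axis) for each gene when 1 of the 12 arrays is left out, coloured by the genotype of that array, with the fit to all 12 arrays as a black bar. GID1B crosses 0.05 in 5 fits, and the other genes stay below 0.05 in all 12.

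SLY1, the F-box gene, was highest in ga1-3. It read 7.06, 7.19 and 7.35 in ga1-3/brm-1, 6.999, 6.976 and 7.178 in brm-1 and 7.80, 7.84 and 7.49 in ga1-3, against 7.12, 7.13 and 7.04 in the wild type. All 3 ga1-3 arrays lay above the other 9, which overlapped one another. SLY1 rose 1.53-fold in ga1-3 over the wild type (0.62 ± 0.11, adjusted p = 0.0059), just past the fold threshold. Without ga1-3 array 1 or 2 the change was 0.57 and 0.55, under that threshold, with adjusted p of 0.026 and 0.027. In ga1-3/brm-1 it was 0.10 (95% interval -0.15 to 0.35, adjusted p = 0.52) above the wild type, and in brm-1 it was -0.04 (95% interval -0.30 to 0.21, adjusted p = 0.84).

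The DELLA genes GAI and RGA1, which encode the repressors that the receptors target, were lower in both genotypes carrying ga1-3. GAI read 6.79, 7.09 and 7.22 in ga1-3/brm-1, 8.64, 8.53 and 8.03 in brm-1 and 7.12, 6.87 and 7.44 in ga1-3, against 8.05, 8.26 and 8.13 in the wild type. The 6 arrays carrying ga1-3 all lay below the 6 others. GAI fell by 1.11 ± 0.19 log2 units in ga1-3/brm-1 (2.16-fold, adjusted p = 0.0011) and by 1.00 ± 0.19 in ga1-3 (2.01-fold, adjusted p = 0.0065). In brm-1 it was 0.25 above the wild type (95% interval -0.16 to 0.67, adjusted p = 0.39), with array 3 below all wild-type arrays and arrays 1 and 2 above them. Without array 3 of brm-1 that difference was 0.44, and it was not called.

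RGA1 read 8.52, 8.50 and 8.36 in ga1-3/brm-1, 9.19, 9.13 and 9.17 in brm-1 and 8.38, 8.54 and 8.08 in ga1-3, against 8.88, 9.17 and 9.30 in the wild type. As for GAI, the arrays carrying ga1-3 lay below all others. RGA1 fell by 0.65 ± 0.13 in ga1-3/brm-1 (1.57-fold, adjusted p = 0.0032) and by 0.78 ± 0.13 in ga1-3 (1.72-fold, adjusted p = 0.0039). Without wild-type array 3 the change in the double mutant was -0.56, under the fold threshold. In brm-1 the difference was 0.05 (95% interval -0.24 to 0.34, adjusted p = 0.86).

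SCL3, the GRAS gene acting against DELLAs, was the only one of the 6 called in brm-1. It read 7.88, 7.87 and 7.51 in ga1-3/brm-1, 6.52, 6.29 and 6.55 in brm-1 and 8.79, 8.95 and 8.64 in ga1-3, against 7.21, 7.36 and 7.40 in the wild type. The 4 genotypes did not overlap, and their order ran ga1-3, ga1-3/brm-1, wild type, brm-1. SCL3 rose 2.77-fold in ga1-3 (1.47 ± 0.13, adjusted p = 0.00011) and fell by 0.87 ± 0.13 in brm-1 (1.82-fold, adjusted p = 0.00098). In ga1-3/brm-1 it was 0.43 ± 0.13 above the wild type with an adjusted p of 0.023, but the 1.35-fold difference was below the fold threshold.

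**Figure D3:**
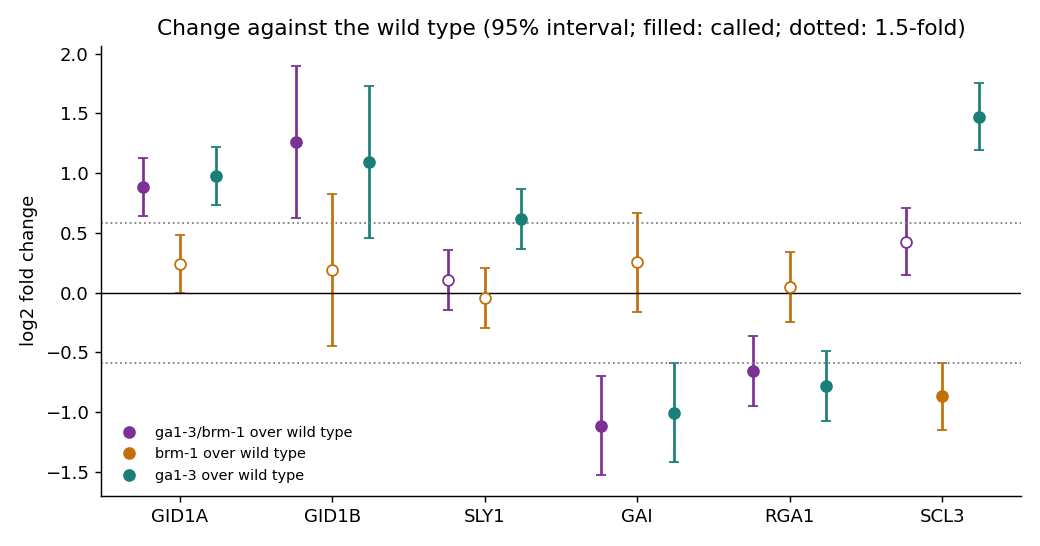
Log2 fold change of each gene over the wild type (vertical axis) with 95% intervals from limma, for ga1-3/brm-1, brm-1 and ga1-3 from left to right. Filled points were called, and dotted lines mark 1.5-fold. All 6 ga1-3 points are filled, and SCL3 is the only filled brm-1 point.

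The design also allows the effect of each mutation to be set beside its effect when the other is present. In ga1-3/brm-1 compared with ga1-3, that is when BRM was lost from GA-deficient plants, 1 of the 6 genes was called, SCL3, against 20.8% of all probe sets (10.1% down). SCL3 fell by 1.04 ± 0.13 (2.06-fold, adjusted p = 0.00025), beside its fall by 0.87 in brm-1 over the wild type. SLY1 was lower by 0.51 ± 0.11 (95% interval -0.76 to -0.26, adjusted p = 0.0062), a 1.43-fold difference below the fold threshold, and was called without array 3 of ga1-3 (-0.62, adjusted p = 0.0023) or array 3 of the double mutant (-0.59, adjusted p = 0.0076). SLY1 and SCL3 were the 2 genes whose arrays did not overlap, against 48.4% of all probe sets. GID1A (-0.10, 95% interval -0.34 to 0.14), GID1B (0.16, -0.47 to 0.80), GAI (-0.11, -0.52 to 0.31) and RGA1 (0.13, -0.16 to 0.42) were not called.

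In ga1-3/brm-1 compared with brm-1, that is when GA1 was lost from plants without BRM, 5 of the 6 genes were called, 3 up and 2 down, against 8.76% of all probe sets (4.98% up and 3.78% down). SCL3 rose 2.45-fold (1.29 ± 0.13, adjusted p = 0.00032). GID1A rose 1.56-fold (0.64 ± 0.11, adjusted p = 0.0047) and GID1B also rose (1.07 ± 0.29, adjusted p = 0.033). GAI fell by 1.37 ± 0.19 (adjusted p = 0.0018) and RGA1 by 0.70 ± 0.13 (adjusted p = 0.0074). SLY1 differed by 0.15 (95% interval -0.10 to 0.40, adjusted p = 0.43). The call of GID1B was lost without array 1 or 2 of ga1-3/brm-1 (adjusted p = 0.103 and 0.086) or without array 1 or 2 of brm-1 (0.069 and 0.085).

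The test of the difference between backgrounds, the interaction of both mutations, passed for none of the 6 genes by limma, while 8.90% of all probe sets (1492) passed on adjusted p alone. That number itself moved between 795 (without ga1-3 array 1) and 1766 when single arrays were left out. At an unadjusted p below 0.05 it passed for 1 gene, SLY1. The interaction of SLY1 was -0.47 ± 0.16 (95% interval -0.82 to -0.11, adjusted p = 0.097) and that of GID1A was -0.34 ± 0.15 (-0.68 to 0.01, adjusted p = 0.21). For SCL3 it was -0.18 ± 0.18 (-0.57 to 0.22), for GAI -0.36 ± 0.26 (-0.95 to 0.23), for RGA1 0.08 ± 0.19 (-0.33 to 0.49) and for GID1B -0.03 ± 0.41 (-0.93 to 0.87). Left out 1 at a time, only array 3 of ga1-3 among the 12 arrays changed whether SLY1 and GID1A passed. Without it the interaction of SLY1 was -0.58 (adjusted p = 0.031) and that of GID1A -0.46 (adjusted p = 0.032). Over all alternatives the adjusted p ranged from 0.022 to 0.19 for SLY1 and from 0.032 to 0.37 for GID1A.

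**Figure D4:**
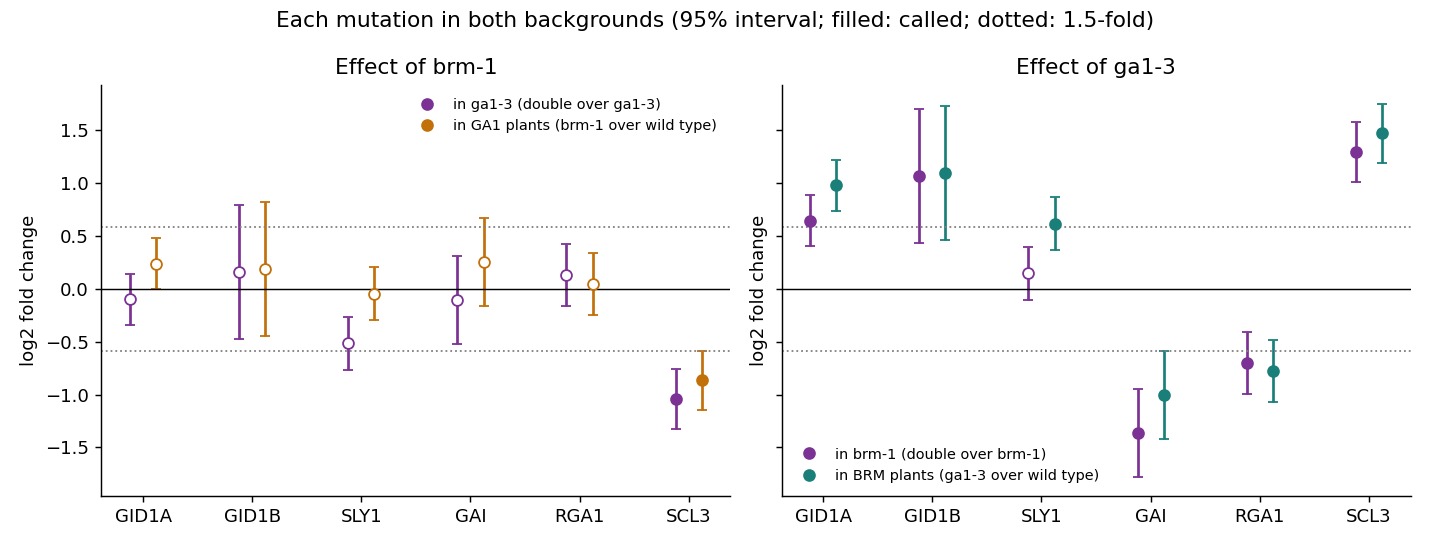
Log2 fold change (vertical axis, 95% intervals) of each gene for the effect of brm-1 (left panel) and of ga1-3 (right panel), each given in plants with the other mutation first and in plants without it second. Filled points were called, and dotted lines mark 1.5-fold. SCL3 falls with brm-1 in both backgrounds, and SLY1 rises with ga1-3 only where BRM is intact, a difference whose test did not pass (adjusted p = 0.097).

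Set directly against each other, brm-1 and ga1-3 differed in all 6 genes, with 2 higher and 4 lower in brm-1, where 14.7% of all probe sets were called (7.55% up and 7.20% down). SCL3 was 5.06-fold lower in brm-1 (-2.34 ± 0.13, adjusted p = 1.9e-06), the widest gap among the 6 genes in the 6 pairwise comparisons. GAI was 2.39-fold and RGA1 1.78-fold higher in brm-1 (adjusted p = 0.0011 and 0.0016). GID1A, GID1B and SLY1 were lower in brm-1 by 0.74, 0.91 and 0.66 log2 units (adjusted p = 0.0010, 0.044 and 0.0024). GID1B fell short of the threshold in 9 of 12 fits that left out 1 array, with adjusted p up to 0.144 (without ga1-3 array 1), and its arrays overlapped. It held only without brm-1 array 3, ga1-3 array 3 or ga1-3/brm-1 array 3.

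The genes fell into groups by their profile over the 12 arrays, measured as the root-mean-square difference of log2 values centred on each gene's mean. GID1A lay closest to SLY1 (0.29) and GID1B (0.33), and GAI lay closest to RGA1 (0.38). The profile of SCL3 was farthest from GAI (1.42) and RGA1 (1.19), and lay 0.61 from GID1A, 0.63 from GID1B and 0.63 from SLY1. Among 10910 probe sets with 1 named gene, those nearest GID1A were HB22 (0.13), a zinc-finger homeodomain gene, and the bHLH gene LHW (0.13). HB22 (0.29) and CSLA02 (0.32) were nearest GID1B. For SLY1 they were FBW2 (0.089), which encodes another F-box protein, and AT4G35030 (0.090). For GAI they were OFP15 (0.17) and AT4G18970 (0.18), and for RGA1 GGH1 (0.10) and CID10 (0.14). For SCL3 they were SGR5 (0.21), a zinc-finger gene of shoot gravitropism, and AT5G36160 (0.23). These distances describe the 12 arrays and share the genotype differences given above.

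Other genes of GA perception had no call against the wild type. GID1C, SNE, SPY and SEC, the 4 of 7 genes in this list that were measured and named did not pass both thresholds in any mutant. In ga1-3/brm-1, SPY, an O-fucosyltransferase gene, was 0.41 below the wild type (-0.41, adjusted p = 0.0055) and SEC, an O-GlcNAc transferase gene, was 0.37 above it (adjusted p = 0.017), both under 1.5-fold and with arrays that did not overlap. GID1C, the remaining receptor gene, averaged 5.35 ± 0.22 in ga1-3/brm-1, 5.55 ± 0.31 in brm-1 and 5.61 ± 0.22 in ga1-3, against 5.83 ± 0.15 in the wild type. Its differences from the wild type were -0.47, -0.27 and -0.22 in these mutants, opposite in sign to those of GID1A and GID1B and not called. SNE, the F-box gene related to SLY1, averaged 2.16 in ga1-3/brm-1, 1.96 in brm-1 and 3.01 in ga1-3, against 2.09 in the wild type, all below the background level. It was 0.92 higher in ga1-3 than in the wild type (adjusted p = 0.051) and 0.85 lower in ga1-3/brm-1 than in ga1-3 (-0.85, adjusted p = 0.036). The DELLA genes RGL1, RGL2 and RGL3 and the 4 SCF genes on the list were not analysed here.

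Late GA-synthesis genes rose with the receptors in the genotypes carrying ga1-3. The 5 of 20 synthesis and inactivation genes that could be named were all named through the study's lists of changed genes. Of these 5, 4 rose in ga1-3/brm-1 and in ga1-3, and 3 fell in brm-1. The shares of all probe sets called were 23.6% in ga1-3/brm-1, 8.79% in ga1-3 and 14.7% in brm-1. Because of how the 5 genes were named, their counts were not independent of having changed. GA3OX1, which makes bioactive GA, changed by 2.63 in ga1-3/brm-1, -2.11 in brm-1 and 3.94 in ga1-3, and so had the same signs as SCL3 in brm-1 and ga1-3. GA20OX2 changed by 3.93, -1.39 and 4.50 in the same order, GA20OX1 by 2.47 and 3.79 and GA20OX3 by 1.17 and 2.02 in the double mutant and in ga1-3. GA3, an early enzyme, fell by 1.04 in brm-1 (adjusted p = 0.00031). The wild-type signals of the 3 GA20OX genes and GA3OX1 lay between 2.02 and 4.93, near or below the background level, and GA3OX1 (2.82) and GA20OX2 (3.34) were below that level in brm-1. GA20OX3 was below it in all genotypes, with averages of 3.18 in ga1-3/brm-1 and 4.04 in ga1-3. The differences of GA3OX1 and the GA20OX genes from the wild type, falls in brm-1 included, therefore describe signals and not measured sizes of a change. GA3 averaged 7.81 in brm-1 and 8.85 in the wild type, both above that level.

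Of 12 genes listed as DELLA targets or GA-responsive genes, 6 were measured and named, of which WRKY27, AT3G11280 and GASA6 only through the study's lists of changed genes. The shares of all probe sets called were 23.6% in ga1-3/brm-1, 14.7% in brm-1 and 8.79% in ga1-3. In ga1-3, 3 rose: XERICO, a RING-finger gene (1.08 ± 0.25, adjusted p = 0.019), WRKY27 (1.38 ± 0.23, adjusted p = 0.0035) and the MYB gene AT3G11280 (0.86 ± 0.09, adjusted p = 0.00038). WRKY27 averaged 4.76 in ga1-3, barely above the background level, against 3.38 in the wild type, below it. In ga1-3/brm-1, 1 rose, BHLH137 (1.77 ± 0.62, adjusted p = 0.045), whose value in ga1-3 was 1.87 with an adjusted p of 0.072. In brm-1, AT3G11280 fell by 0.89 ± 0.09 (adjusted p = 0.00016), the pattern seen for SCL3, and GASA6, a gene of the GA-stimulated GASA family, rose by 1.27 ± 0.20 (adjusted p = 0.0015). Of 14 genes for DELLA-binding proteins, PIF5 and JKD were measured and named, and both fell in ga1-3/brm-1 (by 1.82 and 1.08) and in brm-1 (by 0.78 and 0.89). PIF5, named only through the study's lists of changed genes, encodes a growth-promoting bHLH factor, and JKD signals were near background in all genotypes.

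Among 10 measured and named genes of the GRAS family other than the DELLAs and SCL3, 2 rose in ga1-3/brm-1, 1 in brm-1 and 1 in ga1-3, and none fell against the wild type by limma. SCL4 (0.82 ± 0.20, adjusted p = 0.0086) and SCL30 (0.66 ± 0.12, adjusted p = 0.0021) rose in ga1-3/brm-1. SCL14, named only through the study's lists of changed genes, rose in brm-1 (0.63 ± 0.11, adjusted p = 0.0031) and SCL23 rose in ga1-3 (0.69 ± 0.18, adjusted p = 0.029). These counts are at or near the share of all probe sets called in the same comparisons (23.6%, 14.7% and 8.79%). SCL4 signals were below the background level in all genotypes. SCL21 had the signs of SCL3 without being called against the wild type, at 0.43 in ga1-3 (adjusted p = 0.064) and -0.49 in brm-1 (1.40-fold, adjusted p = 0.028), and it was lower in brm-1 than in ga1-3 by 0.91 (adjusted p = 0.0011).

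**Figure D5:**
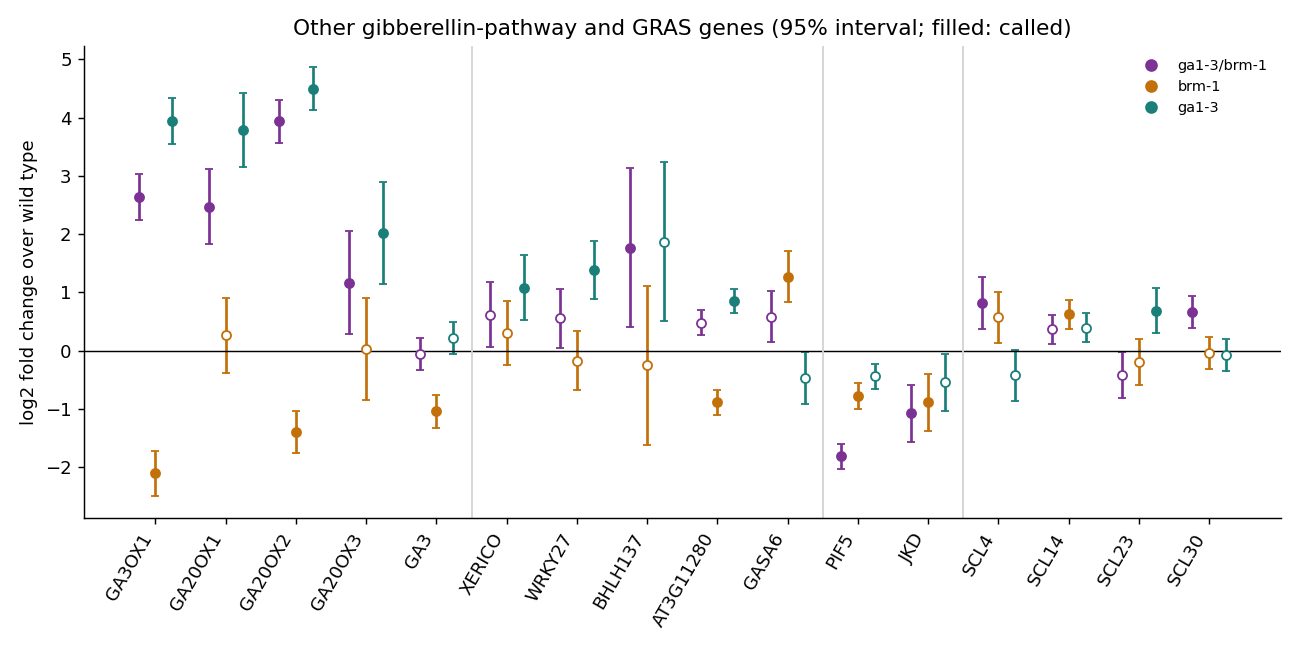
Log2 fold change over the wild type (vertical axis, 95% intervals) of further genes called in at least 1 mutant, in the order ga1-3/brm-1, brm-1 and ga1-3, with filled points for calls. From left to right the blocks hold GA-synthesis genes, DELLA targets and GA-responsive genes, genes for DELLA-binding proteins, and GRAS genes. GA3OX1, GA20OX2 and AT3G11280 were called in both single mutants, with points above 0 in ga1-3 and below it in brm-1, while GA3, WRKY27, BHLH137 and SCL23 had these signs without both calls.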

How the data were processed

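RNA from shoots was hybridised by the authors to 12 ATH1 arrays, 3 per genotype. The deposited values are log2 signals that the authors made with GC-RMA in Partek (versions not given in the sources used here), after keeping probe sets detected by MAS5.0. The table holds 16824 probe sets, of which 60 controls were left out. Arrays give no read depth, so that their number limits the precision. Nothing says more of the replicates than that they are biological.

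All 12 arrays were fitted by genotype with limma 3.58.1 in R 4.3.3 (lmFit, eBayes), with Benjamini-Hochberg adjustment over 16764 probe sets in each of 7 contrasts. The interaction was the double mutant minus brm-1 minus ga1-3 plus wild type, called on adjusted p alone. The script was tested on simulated data. The level near background, 4.70, is the 26th percentile of all values in the table. This cut-off was set and not measured, in a table already limited to probe sets detected by MAS5.0. Probe sets were named by locus, 9267 with 1 gene through the platform annotation and 1649 more through the study's lists of changed genes, while 5439 stayed unnamed. Values were given for the 6 genes in every contrast, for BRM, and for at most 6 genes per list called against the wild type; other genes named were chosen after their values were seen. Members and lists were chosen with earlier results of these data known. The p-values rest on a spread between arrays that is pooled over the 4 genotypes, with 3 arrays each, and moderated by limma over all probe sets. They do not follow the spread of each genotype. The authors' methods name an analysis of variance with a further factor that they do not specify, so the fit used genotype alone. Same-numbered arrays of different genotypes did not deviate together, and a replicate block was fitted only as an alternative.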

Additional observations from a re-analysis of the deposited data

Results flagged for a closer look

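The interaction test, in which the effect of one mutation changes with the other present, passed for none of the 6 genes (limma, adjusted p below 0.05). It passed for 7 of the 27 other pathway and GRAS genes measured and named, against 8.90% of all probe sets. Of these 7, PIF5, AT3G11280, GA3, GA20OX1 and SCL14 were named only through the study's lists of changed genes. The count therefore leans towards calls and cannot be read as an excess over all probe sets. The interaction was negative for GA20OX1 (-1.58 ± 0.41, adjusted p = 0.039), SCL23 (-0.91 ± 0.25, adjusted p = 0.049), SCL14 (-0.65 ± 0.16, adjusted p = 0.033) and PIF5 (-0.59 ± 0.14, adjusted p = 0.029). GA20OX1 signals were below the background level in brm-1 (2.87) and in the wild type (2.61), so that the effect of brm-1 with GA1 intact was not measurable for it. The interaction was positive for SCL30 (0.79 ± 0.17, adjusted p = 0.024), GA3 (0.77 ± 0.18, adjusted p = 0.027) and the MYB gene AT3G11280 (0.51 ± 0.13, adjusted p = 0.040).

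None of these calls held in every fit that left out 1 array. In the 12 fits that left out 1 array each, a check added after seeing the data, SCL30 was called in 9, GA3 and SCL14 in 5 each, PIF5 and AT3G11280 in 3 each, SCL23 in 2 and GA20OX1 in 1. Their highest adjusted p in these fits lay between 0.056 (SCL30) and 0.104 (SCL23). With a replicate block, SCL30 (adjusted p = 0.039) and SCL14 (adjusted p = 0.0498) were called, and the other genes had adjusted p of 0.055 to 0.080. With array weights all 7 were called. No sign changed in any of these fits.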

How the results depend on the processing

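Of 948 values of the 6 genes under alternatives, 874 kept their sign and side of the threshold, 41 lost the call, 12 gained it and 21 changed sign, the last all for values that were not called. With fold changes above 2 required, the calls numbered 2043 in ga1-3/brm-1, 1227 in brm-1 and 697 in ga1-3 over wild type, 1475 in ga1-3/brm-1 over ga1-3, 664 in ga1-3/brm-1 over brm-1 and 1231 in brm-1 over ga1-3, of which 2, 0, 3, 1, 3 and 2 were of the 6 genes. Without a fold threshold they numbered 6236 in ga1-3/brm-1 and 2262 in ga1-3 over wild type, 5749 in ga1-3/brm-1 over ga1-3, with 2 of the 6 genes, 2408 in ga1-3/brm-1 over brm-1 and 3764 in brm-1 over ga1-3. With the arrays of both genotypes alone, ga1-3/brm-1 over brm-1 gave 896 calls. GID1B lost the call there (adjusted p = 0.087), and in brm-1 over ga1-3 (0.139). With ordinary variances it lost it in ga1-3 over wild type (0.068), ga1-3/brm-1 over brm-1 (0.071) and brm-1 over ga1-3 (0.087).

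With array weights the interaction gave 2748 calls, and GID1A (-0.44, adjusted p = 0.038) and SLY1 (-0.52, adjusted p = 0.022) made 2 of the 6 genes. SLY1 was then also called in ga1-3/brm-1 over ga1-3 (-0.60), so that 2 genes were. With array 3 of brm-1 and of ga1-3 both left out, a choice made after seeing the data, the counts of genes were again 2 and 2 (interactions -0.43 and -0.51, adjusted p = 0.043 and 0.039). With single arrays left out, 795 to 1766 probe sets and 0 to 2 of the 6 genes passed the interaction, and 1 to 2 genes were called in ga1-3/brm-1 over ga1-3.

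Values that changed sign had not been called under any setting. GID1B in brm-1 over wild type was -0.033 with array weights, -0.056 with both arrays 3 left out and -0.056 to 0.50 with single arrays left out. In ga1-3/brm-1 over ga1-3 it was -0.015 with weights, -0.089 without both arrays and -0.089 to 0.34 without single arrays. Its interaction was 4.1e-05 with quantile normalization, 0.018 with weights and -0.34 to 0.22 without single arrays. GAI in ga1-3/brm-1 over ga1-3 was 0.041 without both arrays and -0.24 to 0.041 without single arrays. RGA1 in brm-1 over wild type was -0.068 to 0.14 without single arrays, and its interaction was -0.045 without both arrays and -0.047 to 0.20 without single arrays.

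Replicate numbers did not pair the arrays: same-numbered arrays correlated at -0.20 to 0.12 (1 of 18 pairs above 0.1), and 2 of 12 arrays correlated best with their own number. With a replicate block the interaction gave 969 calls in place of 1492, and GID1B was no longer called in ga1-3 over wild type (adjusted p = 0.056), ga1-3/brm-1 over brm-1 (0.058) or brm-1 over ga1-3 (0.072). No other call of the 6 genes changed under the block.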
